A study of Mus musculus with 10 samples.

Results

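The renin-angiotensin system was examined through 9 genes: Agt, Ren1, Ace, Mme, Enpep, Agtr1a, Agtr1b, Agtr2 and Mas1. Members were found by gene name in the platform annotation, with older names matched by Entrez identifier, and the probe with the highest mean log2 intensity stood for a gene. Of the 9 genes, 7 had a probe listed for that gene alone, among 17991 named genes tested. Ren1 and Agtr2 are not analysed here. No probe was listed for Ren1, and the probe of Agtr2 was listed for a second gene as well.

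RNA came from the abdominal aorta of male ApoE-/- mice aged 14 weeks. Loss of apolipoprotein E raises plasma cholesterol. All groups carried this deletion, and the labels name no drug, diet or infusion. Aortas were pooled by 2 mice, and from each of 5 pools the segment below the renal arteries (infrarenal) and the segment above them (suprarenal) were kept apart. Each segment was read on 1 single-colour array, so that 5 infrarenal arrays stood against 5 suprarenal arrays, numbered by pool as 1, 6, 8, 11 and 12. Because mice were pooled, the spread between pools understates the spread between single animals. Levels are given as log2 of the scaled intensity, where 0 lies close to the median of an array, and differences are infrarenal minus suprarenal. A level says nothing about the level of another gene, because probes differ in brightness.

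Angiotensinogen, encoded by Agt, is cut by renin to angiotensin I, and angiotensin-converting enzyme, encoded by Ace, turns this into angiotensin II. Angiotensin II constricts arteries through the AT1 receptor, which mice encode in a pair of genes, Agtr1a and Agtr1b, and the AT2 receptor (Agtr2) often opposes it. Neprilysin (Mme) makes angiotensin-(1-7), a ligand of the Mas receptor, and aminopeptidase A (Enpep) makes angiotensin III. Infusion of angiotensin II into ApoE-/- mice is a widely used model in which aneurysms form mostly in the suprarenal aorta, and the comparison of the regions in mice without a named infusion bears on that background.

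Promoters are shown for 3 members, Agtr1b, Agt and Enpep. Agtr1b varied most among the members with a mean log2 above 0, and Agt encodes the source of all angiotensin peptides. Enpep was, beside Agtr1b, the other member with a limma unadjusted p under 0.05 without pool 12. The sequences were taken from RefSeq on GRCm38.p6, cover the 150 bases before the gene's start, run 5′ to 3′ on the gene's strand, and have matches to TATAAA or CCAAT on either strand in capitals. They were searched for GGGCGG too. Over 32851 promoter windows of this length, 7.57% held TATAAA, 24.5% held CCAAT and 28.6% held GGGCGG. The matches in the sequences shown do not overlap. The table matched 8 of the 9 members, all but Agtr1a.
Agtr1b, minus strand, chr3:20367178-20367327: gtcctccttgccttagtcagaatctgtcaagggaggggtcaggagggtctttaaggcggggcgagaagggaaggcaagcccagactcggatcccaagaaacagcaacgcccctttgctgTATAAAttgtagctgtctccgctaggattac
Agt, minus strand, chr8:124569707-124569856: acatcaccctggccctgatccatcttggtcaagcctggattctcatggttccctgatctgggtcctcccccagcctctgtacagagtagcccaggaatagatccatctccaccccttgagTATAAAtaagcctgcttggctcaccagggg
Enpep, minus strand, chr3:129332750-129332899: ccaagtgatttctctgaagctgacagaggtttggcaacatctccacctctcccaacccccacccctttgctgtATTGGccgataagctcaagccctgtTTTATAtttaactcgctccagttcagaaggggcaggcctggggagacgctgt
In Agtr1b and Agt the TATAAA match begins at positions -31 and -30, counted back from the start, on the gene's strand. In Enpep both matches lie on the other strand, with TATAAA at -52 and CCAAT at -77. A match describes these letters only.

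The tissue was checked against markers first. All 8 smooth muscle markers lay above the array median on every array, with list means between 6.01 and 6.27 on infrarenal and between 5.93 and 6.29 on suprarenal arrays. The values of fat, nerve and striated muscle markers varied widely within a region. The 9 brown adipocyte markers had regional differences of 0.16, -2.18, -0.60, -2.04 and 1.49 in pools 1, 6, 8, 11 and 12, and the 10 skeletal muscle markers -2.32, 2.39, 1.07, 3.38 and -2.70. Adrenal cortex markers were at most 1 of 7 above the median, and kidney markers at most 2 of 9. In bulk tissue, fewer cells of a type and less RNA per cell cannot be told apart. Pool 12 ran opposite to pools 6, 8 and 11 for both the brown adipocyte and the skeletal muscle markers. Pool 1 shared the signs of pool 12 on both lists. For Agtr1b, however, pool 12 alone had the opposite sign. Regional differences of the members and of the related genes are given with and without pool 12, a choice not independent of the Agtr1b values.

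None of the 7 measured members passed the test of the regional difference, made with limma over all probes with the pool as a block (adjusted p between 0.639 and 0.941). The share of all 36061 probes that passed was 0%. At an unadjusted p under 0.05 there were 0 of 7 members, beside 7.56% of all probes (3.05% higher and 4.51% lower in infrarenal aorta). All 5 pools had 1 sign for 0 of 7 members and for 9.18% of probes, and the regions did not overlap for 0 of 7 members and for 1.32% of probes. Infrarenal means were higher for 4 members and lower for 3, and the median difference of the members was 0.041, beside -0.023 over all probes. Without pool 12 these medians were -0.037 and -0.016. The members therefore had no common direction, and what set them apart from each other was how they varied by pool.

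**Figure D1:**
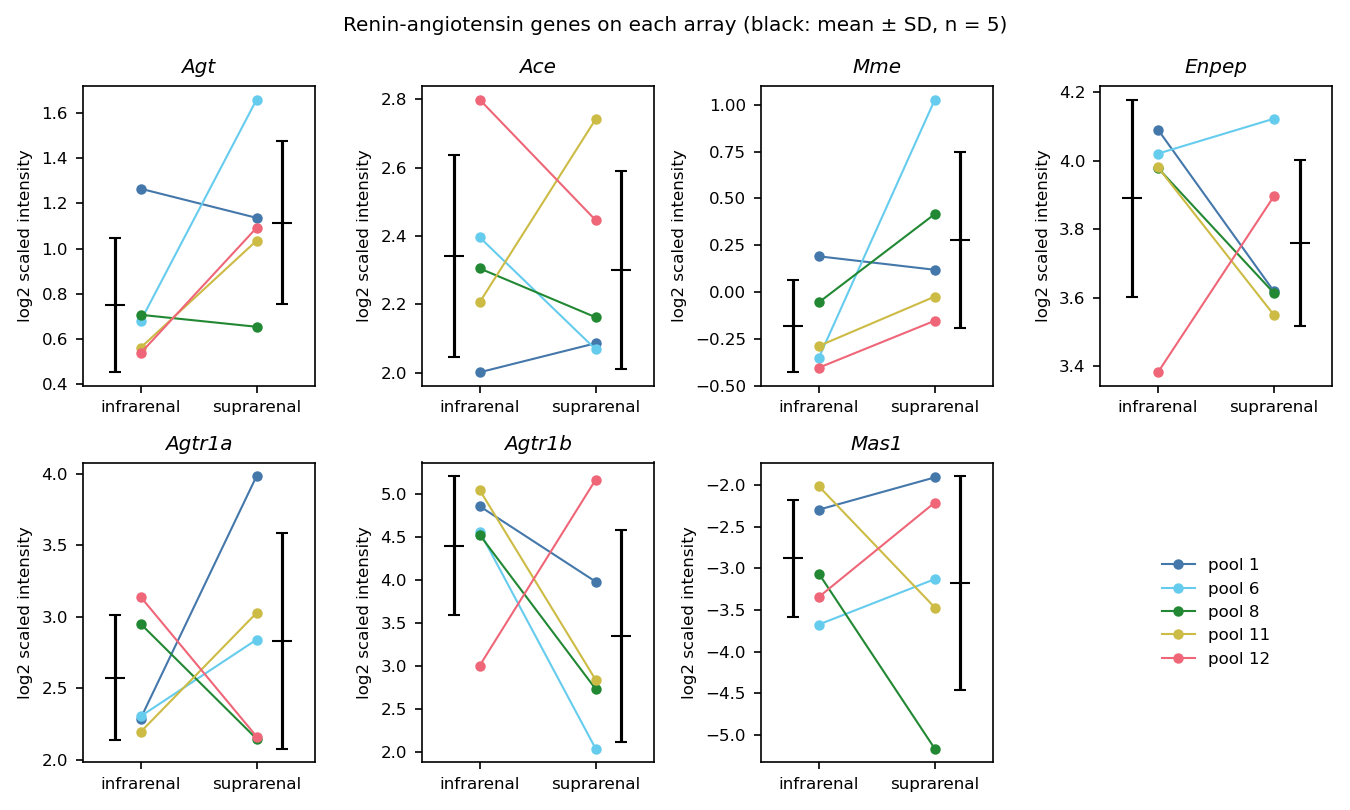
Log2 scaled intensity of each measured renin-angiotensin gene on the 5 infrarenal (left) and 5 suprarenal (right) arrays, with a line joining the arrays of a pool and black bars for the mean ± SD (n = 5). The vertical scale differs between panels; lines cross in every panel, and Agtr1b spans 3.13 log2 units with pool 12 running opposite to the other pools.

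Agt, which encodes the substrate of renin, had infrarenal levels of 1.26, 0.68, 0.71, 0.56 and 0.54 log2 units in pools 1, 6, 8, 11 and 12. The suprarenal levels of the same pools were 1.14, 1.66, 0.65, 1.03 and 1.09. Suprarenal aorta of pool 6 was the highest array, infrarenal aorta of pool 1 stood above the other infrarenal arrays, and the regions overlapped. Agt averaged 0.75 ± 0.30 in infrarenal and 1.12 ± 0.36 in suprarenal aorta (SD, n = 5), lower in infrarenal aorta in 3 of 5 pools. The difference was -0.37 ± 0.17 (SE; 95% interval -0.76 to 0.02), with a limma adjusted p of 0.639. Without pool 12 it was -0.32 ± 0.19, with a limma adjusted p of 0.567, and without pool 6 it was -0.21. Pool 6 had the largest Agt difference, -0.98, and in the same pool brown adipocyte markers differed by -2.18 and general adipocyte markers by -1.33. Pool 12 had the next largest, -0.56, and there the same lists differed by 1.49 and 0.57. In pool 11 Agt differed by -0.47 and the lists by -2.04 and 0.14. Angiotensinogen is made in liver and also in fat around vessels. Across the 10 arrays, of which each pair shares its animals, Agt had an r of 0.455 with the brown adipocyte mean and 0.496 with the general adipocyte mean. With the 2 arrays farthest from the median left out, these were 0.247 and -0.118, and without pool 12 they were 0.663 and 0.696. Smooth muscle and skeletal muscle markers ran the other way, with r of -0.606 and -0.516, and of -0.257 and -0.006 without the 2 farthest arrays. Without pool 12 their r was -0.816 and -0.763. The part of fat or muscle in the Agt values was not tested.

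Ace, which forms angiotensin II on the endothelial surface, had infrarenal levels of 2.00, 2.40, 2.30, 2.21 and 2.80 in pools 1, 6, 8, 11 and 12. Its suprarenal levels were 2.09, 2.07, 2.16, 2.74 and 2.45. The regions overlapped almost wholly, with the highest array infrarenal in pool 12 and the next highest suprarenal in pool 11. Ace averaged 2.34 ± 0.29 in infrarenal and 2.30 ± 0.29 in suprarenal aorta (SD, n = 5). The difference of 0.04 ± 0.14 (SE; 95% interval -0.28 to 0.36) had a limma adjusted p of 0.941, and it was -0.04 ± 0.15 without pool 12 (adjusted p = 0.945). The interval spans differences of either sign. Ace ran opposite to the mean of 8 endothelial markers, with an r of -0.841 across the 10 arrays and -0.778 without pool 12. Once the 2 farthest arrays were left out, however, r was -0.396. Other lists then had r farther from 0. Brown adipocyte markers had -0.918 (-0.238 on all arrays) and smooth muscle markers 0.811 (0.489). General adipocyte markers had -0.761 (-0.412) and mast cell markers 0.730 (-0.141). The part of these cells in the Ace values was not tested.

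Mme encodes neprilysin, a membrane peptidase that also degrades natriuretic peptides and bradykinin. On infrarenal arrays it read 0.19, -0.35, -0.06, -0.29 and -0.40 in pools 1, 6, 8, 11 and 12. On suprarenal arrays it read 0.12, 1.03, 0.42, -0.02 and -0.15. In 4 of 5 pools the infrarenal level was the lower, by most in pool 6, and the ranges of the regions overlapped. Mme averaged -0.18 ± 0.25 in infrarenal and 0.28 ± 0.47 in suprarenal aorta (SD, n = 5). The difference was -0.46 ± 0.20 (SE; 95% interval -0.92 to 0.00), with an unadjusted p of 0.0516 and an adjusted p of 0.639 by limma. Without pool 12 it was -0.51 ± 0.23 (adjusted p = 0.475 by limma). Without pool 6 it was -0.23. General adipocyte markers moved with Mme across the 10 arrays (r = 0.796), though r was 0.313 without the 2 farthest arrays and 0.909 without pool 12. Brown adipocyte markers had an r of 0.586, and of 0.724 and 0.603 in the same order. Smooth muscle markers ran the other way (r = -0.771, -0.737 without the 2 farthest arrays and -0.816 without pool 12). The part of these cells in the Mme values was not tested. Mme and Agt had an r of 0.751 with each other, 0.324 without the 2 farthest arrays and 0.762 without pool 12.

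Enpep, aminopeptidase A, trims angiotensin II to angiotensin III and is found on pericytes and kidney epithelium. Its infrarenal levels were 4.09, 4.02, 3.98, 3.98 and 3.38 in pools 1, 6, 8, 11 and 12. Its suprarenal levels were 3.62, 4.12, 3.61, 3.55 and 3.90. The infrarenal arrays of pools 1, 6, 8 and 11 lay close together, and infrarenal aorta of pool 12 was the lowest of all 10 arrays. Enpep averaged 3.89 ± 0.29 in infrarenal and 3.76 ± 0.24 in suprarenal aorta (SD, n = 5). The difference was 0.13 ± 0.15 (SE; 95% interval -0.22 to 0.48; limma adjusted p = 0.800). Without pool 12 it was 0.29 ± 0.12 (95% interval 0.02 to 0.56), with an unadjusted p of 0.0369 and an adjusted p of 0.441 by limma. A second, dimmer Enpep probe did not share this pattern: its difference was -0.10 ± 0.10 with all pools and -0.11 ± 0.12 without pool 12.

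Agtr1a encodes the AT1a receptor, the main pressor receptor of the mouse. It read 2.29, 2.30, 2.95, 2.19 and 3.14 on infrarenal arrays of pools 1, 6, 8, 11 and 12. The suprarenal arrays read 3.98, 2.84, 2.15, 3.03 and 2.16. Suprarenal aorta of pool 1 was the highest array, and the region with more Agtr1a was not the same in every pool: infrarenal aorta was lower in pools 1, 6 and 11 and higher in pools 8 and 12. Agtr1a averaged 2.57 ± 0.44 in infrarenal and 2.83 ± 0.76 in suprarenal aorta (SD, n = 5). The difference was -0.26 ± 0.37 (SE; 95% interval -1.10 to 0.59; limma adjusted p = 0.842), and -0.57 ± 0.34 without pool 12 (limma adjusted p = 0.564). Without pool 1 it turned to 0.10.

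The Agtr1a values moved with markers of sympathetic neurons and chromaffin cells. These 10 markers had regional differences of -2.57, -0.25, 1.61, -1.46 and 1.81 in pools 1, 6, 8, 11 and 12, beside Agtr1a differences of -1.70, -0.54, 0.80, -0.83 and 0.98. The sign was the same in each pool. Across the 10 arrays Agtr1a had an r of 0.944 with the mean of these markers, 0.897 without the 2 farthest arrays and 0.934 without pool 12. Their summed intensity lay between 44.0 and 131 on infrarenal and between 42.0 and 238 on suprarenal arrays, with 8 or 9 of 10 markers above the array median. The genes most like Agtr1a among 11149 compared were Ctnna2, a catenin of neurons (r = 0.982), Lrp11 (r = 0.977) and Ppfia2, a scaffold of synapses (r = 0.965). Fibroblast markers ran the other way (r = -0.849), though they were above the array median in all 8 cases on every array. The part of nerve tissue in the Agtr1a values was not tested.

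Agtr1b encodes the AT1b receptor, which is known in mice for contraction of the abdominal aorta by angiotensin II. It varied more than any other member that was bright enough to judge, with a range of 3.13 log2 units over the 10 arrays, wider than that of 99.3% of 17831 probes with a mean log2 above 0 (median range 0.595). The infrarenal arrays of pools 1, 6, 8, 11 and 12 read 4.86, 4.56, 4.52, 5.04 and 3.002. The suprarenal arrays of the same pools read 3.98, 2.03, 2.73, 2.84 and 5.16. In pools 1, 6, 8 and 11 every infrarenal array was above every suprarenal array, and in pool 12 the order was turned, with the highest of all arrays suprarenal. The differences by pool were 0.88, 2.52, 1.79, 2.21 and -2.16.

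Over 5 pools Agtr1b averaged 4.40 ± 0.81 in infrarenal and 3.35 ± 1.23 in suprarenal aorta (SD, n = 5). The difference was 1.05 ± 0.60 (SE; 95% interval -0.35 to 2.44), a ratio of 2.07, with a limma adjusted p of 0.659. Without pool 12 the difference was 1.85 ± 0.24 (95% interval 1.29 to 2.41), a ratio of 3.61, and infrarenal aorta was higher in 4 of 4 pools. Its unadjusted p was then 7.93e-05, with 9 probes smaller, and its adjusted p 0.282 by limma, the smallest value that any probe reached without pool 12. The regions did not overlap for Agtr1b alone of the 7 members in those 4 pools, beside 5.82% of all probes, and it was the 1 member with a single sign in all 4, beside 20.0% of probes. Of the 7 members, 2 had an unadjusted p under 0.05 without pool 12, Agtr1b and Enpep, both higher in infrarenal aorta, beside 10.9% of all probes (4.13% higher and 6.77% lower). Agtr1b thus did not pass with or without pool 12. Because pool 12 alone had the opposite sign, leaving it out fixes the single sign in the other pools. It also favours a small p and regions that do not overlap, so these values are not separate evidence. With any other single pool left out, the difference lay between 0.68 and 1.09.

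**Figure D2:**
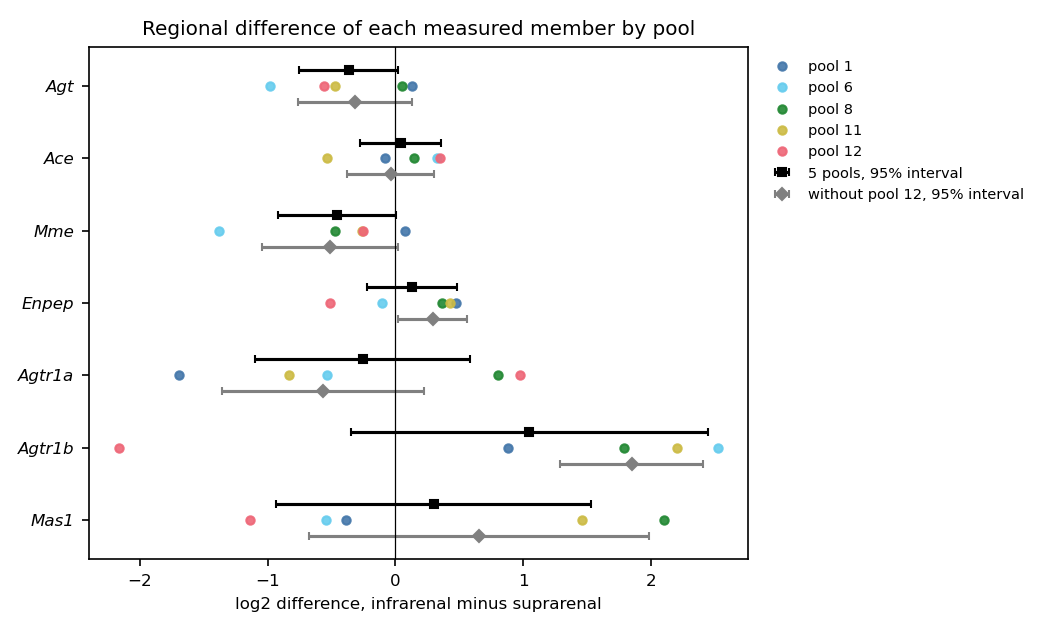
Log2 difference of each measured member, infrarenal minus suprarenal, by pool (coloured points), with the limma estimate and its 95% interval over 5 pools (black) and without pool 12 (grey). Agtr1b has the widest spread, from -2.16 in pool 12 to 2.52 in pool 6, and its interval without pool 12 runs from 1.29 to 2.41.

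The genes whose levels followed Agtr1b most closely over the 10 arrays were Cpb1, a carboxypeptidase (r = 0.990), P2rx1, an ATP-gated ion channel of arterial smooth muscle (r = 0.973), and Rgs5, a regulator of G protein signalling abundant in pericytes and arterial smooth muscle (r = 0.973). Without the 2 farthest arrays r was 0.981, 0.975 and 0.963. Rgs5 acts on the G proteins that AT1 receptors use, and it was in the list of AT1 coupling genes. On infrarenal arrays of pools 1, 6, 8, 11 and 12 it read 6.26, 6.22, 6.13, 6.34 and 5.44, and on suprarenal arrays 6.12, 5.23, 5.67, 5.64 and 6.45. The order of the regions was that of Agtr1b in each pool. The Rgs5 difference was 0.26 ± 0.25 (SE; limma adjusted p = 0.764), and 0.58 ± 0.14 without pool 12 (limma adjusted p = 0.383). Cpb1 differed by 0.85 ± 0.54, and by 1.57 ± 0.23 without pool 12 (limma adjusted p = 0.378). Cpb1, P2rx1 and Rgs5 were picked for following Agtr1b on these same arrays. Their shared order of regions and their values without pool 12 are therefore not separate evidence.

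Several marker lists moved with Agtr1b. Mast cell markers had an r of 0.686 with it, skeletal muscle markers 0.633 and smooth muscle markers 0.600. General adipocyte markers had -0.714 and brown adipocyte markers -0.584. Without the 2 farthest arrays these were 0.773, 0.644, 0.362, -0.400 and -0.535, and without pool 12 0.592, 0.545, 0.587, -0.664 and -0.529. Endothelial markers had 0.736 without the 2 farthest arrays (0.323 on all arrays) and sympathetic markers -0.715 (-0.265 on all arrays). The 8 mast cell markers differed by 0.25, 0.26, 0.62, 0.66 and -0.66 in pools 1, 6, 8, 11 and 12, with the same signs as Agtr1b, and 7 of them lay above the median on every array. The smooth muscle list differed by 0.05, 0.25, 0.08, 0.17 and -0.14, also with the same signs, and by far less than Agtr1b. The part of these cells in the Agtr1b values was not tested. The AT1 receptor genes did not move together: Agtr1a and Agtr1b had an r of -0.333, and their regional differences had opposite signs in pools 1, 6, 11 and 12.

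**Figure D3:**
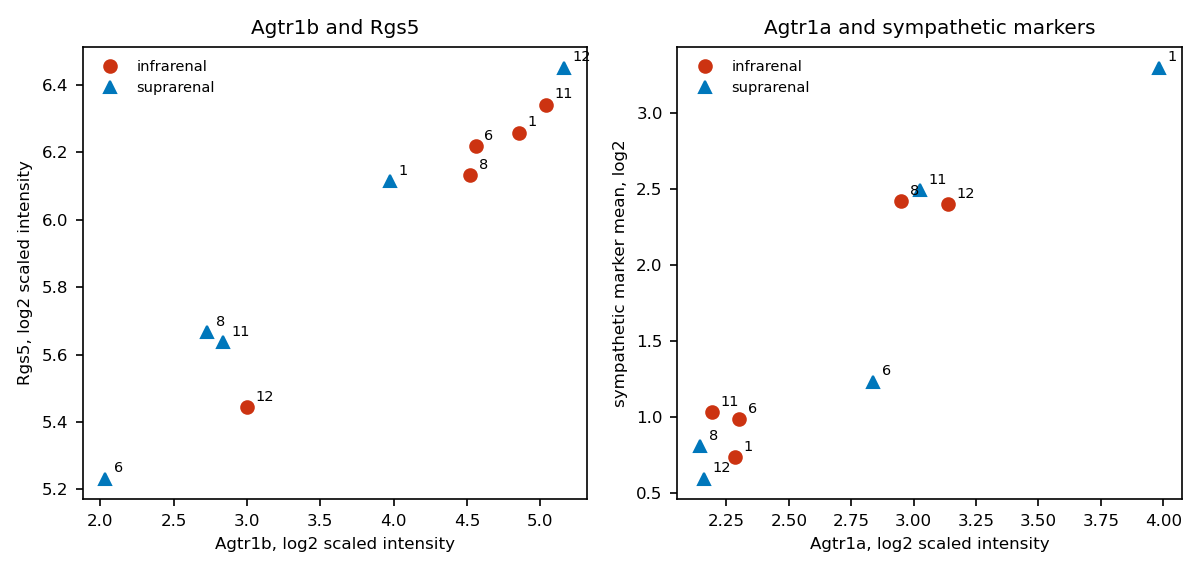
Left, Rgs5 against Agtr1b, and right, the mean of 10 sympathetic neuron and chromaffin markers against Agtr1a, all in log2 scaled intensity on the 10 arrays, with the pool number beside each point (circles infrarenal, triangles suprarenal). Rgs5 follows Agtr1b with an r of 0.973, and the markers follow Agtr1a with an r of 0.944. In the left panel the pool 12 triangle is the highest point on both axes, and the pool 12 circle is the lowest circle.

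Mas1 encodes the receptor for angiotensin-(1-7). Its probe was among the dimmest 30%. Infrarenal arrays read -2.29, -3.67, -3.06, -2.01 and -3.34 in pools 1, 6, 8, 11 and 12. Suprarenal arrays read -1.91, -3.13, -5.17, -3.47 and -2.21, of which the value of pool 8 was the floor itself. The regions overlapped, with infrarenal aorta higher in pools 8 and 11 and lower in pools 1, 6 and 12. The difference was 0.30 ± 0.53 (SE; 95% interval -0.93 to 1.53; limma adjusted p = 0.879), and 0.66 ± 0.57 without pool 12 (limma adjusted p = 0.698). Without pool 8 it was -0.15.

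The spread over the 10 arrays separated the members that were bright enough to compare. After Agtr1b came Agtr1a, with a range of 1.84 log2 units (wider than 96.9% of probes with a mean log2 above 0), Mme with 1.43 (93.8%) and Agt with 1.12 (88.4%). Ace and Enpep varied less, by 0.80 (72.8%) and 0.74 (67.6%). Mme only just met the limit of brightness, with a mean log2 of 0.05, so its rank among brighter probes is less certain. Each member had companions of its own among the 11149 genes. For Ace they were Csdc2, Ciz1 and Slc44a2 (r of 0.974, 0.966 and 0.966), and for Agt Pank2, Stard7 and Ankrd40 (0.930, 0.918 and 0.915). Those of Mme were Tspan12, Abhd12 and Dolk (0.976, 0.972 and 0.970), and those of Enpep were Mphosph6, Fam161a and Junb (0.929, 0.928 and 0.911). No gene was a companion of more than 1 member. Values of r this high were found for each of the 6 members compared, and they are descriptions.

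Other genes that make, cut or carry angiotensin signals were looked at as lists, and 0 genes of any list passed limma's test with or without pool 12. At an unadjusted p under 0.05 there were 1 of 16 peptidase and renin receptor genes, 2 of 18 AT1 coupling genes, 1 of 15 response genes, 0 of 7 aldosterone genes and 0 of 3 kinin genes, beside 7.56% of all probes. Without pool 12 there were 4 of 16, 1 of 18, 3 of 15, 0 of 7 and 0 of 3, beside 10.9% of all probes. The tallies of direction below stand beside 54.2% of all probes with a negative difference, and 52.7% without pool 12.

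Of 16 measured peptidase and renin receptor genes, 13 were lower and 3 higher in infrarenal aorta, with a median difference of -0.11, and without pool 12 there were 12 lower and 4 higher, with a median of -0.08. Rnpep, aminopeptidase B, differed by -0.24 ± 0.10 (SE, 5 pools), and by -0.25 ± 0.12 without pool 12. The peptidase gene Thop1 differed by -0.17 ± 0.08, and by -0.17 ± 0.09 without pool 12. Ctsd, cathepsin D, differed by -0.23 ± 0.11, and by -0.33 ± 0.11 without pool 12. The sign was negative in 5 of 5 pools for Thop1, Anpep and Ece2, which is 3 of 16 genes, beside 9.18% of all probes with 1 sign in 5 pools. The renin receptor gene Atp6ap2 differed by -0.10 ± 0.09, and by -0.04 ± 0.10 without pool 12.

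The 3 genes of this list with positive differences were Cma1, a chymase, Cpa3, a carboxypeptidase, and Mcpt4, a chymase, all of which mast cells make. Their differences were 0.25 ± 0.20, 0.33 ± 0.27 and 0.05 ± 0.15 over 5 pools. Without pool 12 they were 0.50 ± 0.11, 0.66 ± 0.15 and 0.22 ± 0.11, with limma adjusted p of 0.383, 0.383 and 0.501. Ctsg, cathepsin G, of the same list went the other way, by -0.10 ± 0.08, and by -0.11 ± 0.10 without pool 12. In the separate list of 8 mast cell markers, 7 were higher and 1, Tpsb2, was lower, by -0.06 ± 0.09 over 5 pools. Cma1, Cpa3, Mcpt4, Ctsg, Tpsb2, Anpep and Ece2 were named after their values were seen. Limma adjusted p-values over 5 pools of Rnpep, Thop1, Ctsd, Atp6ap2, Cma1, Cpa3 and Mcpt4 lay between 0.639 and 0.939.

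Genes that couple AT1 receptors to the cell were lower in 14 and higher in 4 of 18 cases, with a median of -0.13, and without pool 12 lower in 15 and higher in 3, with a median of -0.09. Gnaq, the G protein subunit through which AT1 receptors raise calcium, differed by -0.35 ± 0.15, Arrb2, an arrestin, by -0.23 ± 0.10 and Rgs4 by -0.22 ± 0.09 (SE, 5 pools, limma adjusted p = 0.639 for each). Without pool 12 they differed by -0.23 ± 0.15, -0.16 ± 0.10 and -0.23 ± 0.10. Agtrap, which promotes uptake of the AT1 receptor, differed by -0.23 ± 0.16, and by -0.06 ± 0.12 without pool 12. Arrb2 alone of the 18 genes was lower in 5 of 5 pools, beside 9.18% of all probes with 1 sign in 5 pools. Rgs5, from the same list, was higher in 4.

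Genes that angiotensin II is known to induce in vessels had no common direction. Of 15 genes, 10 were lower and 5 higher, with a median of -0.04, and without pool 12 there were 7 lower and 8 higher, with a median of 0.03. Fn1, fibronectin, was higher in infrarenal aorta in 4 of 5 pools, by 0.27 ± 0.10 over 5 pools and 0.34 ± 0.11 without pool 12. Tgfb1 differed by -0.17 ± 0.07, and by -0.20 ± 0.08 without pool 12. Cybb, a subunit of the NADPH oxidase of phagocytes, differed by -0.39 ± 0.19, and by -0.20 ± 0.16 without pool 12 (SE, limma adjusted p of 0.639, 0.639 and 0.640 for Fn1, Tgfb1 and Cybb over 5 pools). The differences of Tgfb1 and Cybb, among the 15 genes, were negative in 5 of 5 pools, beside 9.18% of all probes with 1 sign in 5 pools. Those of Cybb were -0.02, -0.08, -0.66, -0.04 and -1.13 in pools 1, 6, 8, 11 and 12, so that pools 8 and 12 carried its mean difference. The 6 macrophage markers differed by -0.04, -0.46, -0.54, 0.01 and -0.60 in the same pools, and the part of macrophages in Cybb was not tested. Fos, an immediate early gene named after its values were seen, differed by 0.45 ± 0.58 with all pools and by 1.24 ± 0.16 without pool 12 (limma adjusted p of 0.822 and 0.282).

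Aldosterone and mineralocorticoid genes had 5 higher and 2 lower of 7, with a median of 0.11, and without pool 12 there were 4 higher and 3 lower, with a median of 0.07. Nr3c2, the mineralocorticoid receptor, differed by 0.11 ± 0.11, and by 0.21 ± 0.09 without pool 12. The sodium channel subunit gene Scnn1g differed by 0.57 ± 0.29, Hsd11b2, which inactivates glucocorticoids, by -0.28 ± 0.20 and Sgk1, a kinase induced by aldosterone, by -0.11 ± 0.08. Without pool 12 these were 0.56 ± 0.34, -0.38 ± 0.23 and -0.11 ± 0.09. Limma adjusted p-values of these 4 genes over 5 pools lay between 0.648 and 0.768, and the probes of Scnn1g and Hsd11b2 were among the dimmest 30%.

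Of 3 kinin genes, 2 were higher and 1 lower over 5 pools, and without pool 12 all 3 were lower. The bradykinin receptor genes Bdkrb1 and Bdkrb2 differed by 0.04 ± 0.12 and -0.36 ± 0.50, and plasma kallikrein, Klkb1, by 0.21 ± 0.38 (SE, limma adjusted p of 0.936, 0.836 and 0.878). Without pool 12 they differed by -0.07 ± 0.10, -0.27 ± 0.60 and -0.23 ± 0.25. Bdkrb2 and Klkb1 were dim.

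**Figure D4:**
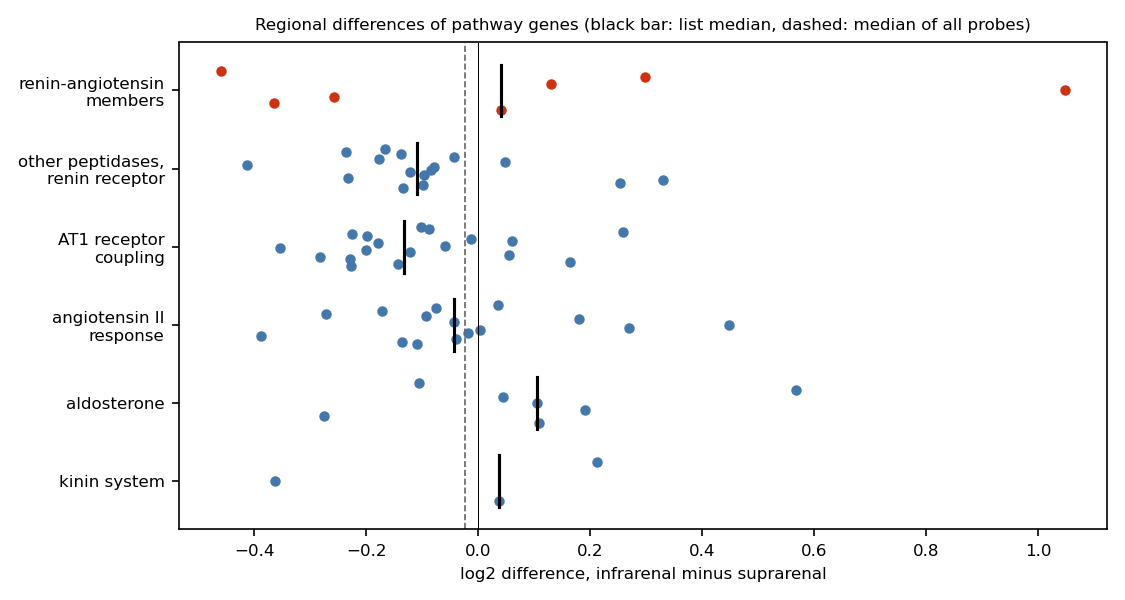
Log2 differences, infrarenal minus suprarenal, of the measured renin-angiotensin genes (red) and of 5 lists of related genes (blue), 1 point a gene over 5 pools, with the median of each list as a black bar and the median of all probes (-0.023) as a dashed line. Points of the peptidase and AT1 coupling lists lie mostly left of 0 (medians -0.11 and -0.13), the aldosterone list mostly right (0.11), and Agtr1b lies farthest right at 1.05.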

How the data were processed

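The authors deposited 1 value per probe and array, as linear intensities that they had scaled so that array medians lay between 1.0013 and 1.0032, as read from the values. Per the labels' protocols, between 0.34 and 0.54 µg of RNA was amplified into biotin-labelled cRNA and stained with Cy5-streptavidin. How the arrays were scanned, background-corrected and scaled is not stated in these sources. Missing values numbered 1968, and 1755 were not above 0. Depth does not apply to arrays, and their number limits the precision, with a median half-width of the 95% interval of 0.36 log2 units.

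Intensities below 0.0278, percentile 1 of the positive values, were raised to it (5328 values), and log2 was taken with no further normalization. Probes with at least 3 values in each region were tested, which left 36061 of 36227. A probe with a missing value was fitted on the arrays that had one. A single gene was listed for 21615 probes, several for 681 and none for 13931, and 21487 of the first were matched by Entrez identifier to the RefSeq table of GRCm38.p6.

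The regional difference was fitted in limma 3.58.1 (R 4.3.3; mean-variance trend, pool as a fixed block) and tested two-sided, with Benjamini-Hochberg adjustment over all probes at 0.05. The pairing comes from the series' design text, by which both parts of a pool came from the same animals, and from the pool number in the sample titles. As a check, each array's deviation from the mean of its region was set against that of its partner, with r of 0.045, 0.006, -0.033, -0.053 and -0.092 in pools 1, 6, 8, 11 and 12, so that partners did not deviate together. All members are named, and of each related list the 3 genes of smallest p, with Atp6ap2, Agtrap and Nr3c2, and for each member with a mean log2 above 0 the 3 genes of highest r over the 10 arrays. The members and lists were chosen with earlier results of these data known.

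Alternatives were no block, quantile normalization, a floor of 0.0716 (percentile 5), an offset of 0.2701 (percentile 25), leaving out the dimmest 30% of probes or each pool in turn, a fit without the trend, weights per array, the amount of RNA as a covariate, and the mean of a gene's probes. Tested on simulated data of 35714 probes, this comparison recovered 10%, 52%, 70% and 78% of 50 probes changed by 0.5, 1, 2 and 3 log2 units, with 2 false calls. All sizes were set in the same run, and noise was drawn for each probe on its own. Swings that many probes share were thus not simulated, and the shares do not give the power for a single member. Motifs were counted in RefSeq promoter windows.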

Additional observations from a re-analysis of the deposited data

Results flagged for a closer look

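Among 98 sets of 5 arrays from 1 region, for 49 genes (the members, their companions and the related genes named above), 12 held 1 array that stood apart, and about 4.9 are expected by chance. Companions were chosen for following a member, so their values are not separate evidence. In infrarenal aorta of pool 12, Agtr1b read 3.002, against 4.52 to 5.04 on the other infrarenal arrays, with its companions Cpb1 at 2.02, against 3.50 to 3.88, and Rgs5 at 5.44, against 6.13 to 6.34. On the same array Enpep read 3.38, against 3.98 to 4.09, and its companion Mphosph6 2.46, against 2.77 to 2.83. In infrarenal aorta of pool 1, Agt read 1.26, against 0.54 to 0.71, with its companions Pank2 at 1.95, against 1.39 to 1.45, and Ankrd40 at 1.94, against 1.23 to 1.43. Rgs4 read 3.76 on that array, against 4.08 to 4.14. Among suprarenal arrays, Fn1 read 8.52 in pool 12, against 7.80 to 7.99, Stard7 3.05 in pool 6, against 2.54 to 2.67, and the dim Bdkrb2 -4.87 in pool 8, against -3.13 to -2.60.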

How the results depend on the processing

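Over 14 alternative settings, 92 of 97 values of member differences kept their sign, 5 did not, and 0 members passed the threshold in any of them. The smallest adjusted p of any member by limma was 0.282, for Agtr1b without pool 12. The values that turned were 0.10 for Agtr1a without pool 1, -0.031 and -0.037 for Ace without pools 6 and 12, -0.0075 for Ace with array weights and -0.15 for Mas1 without pool 8, and the cause was not tested. With no replicate block, 0 members and 0 of all probes passed. After quantile normalization 1 of all probes passed, where 0 had passed, and it was none of the members. With 1 pool left out in turn, differences ran from -0.49 to -0.21 for Agt, -0.04 to 0.19 for Ace, -0.57 to 0.10 for Agtr1a, 0.68 to 1.85 for Agtr1b, -0.59 to -0.23 for Mme, 0.04 to 0.29 for Enpep and -0.15 to 0.66 for Mas1. Over the other settings Agtr1b ran from 0.86 to 1.22. Mas1 has no value where the dimmest 30% of probes were left out. Signal over background limits Mas1, Bdkrb2, Scnn1g, Hsd11b2 and Klkb1, and 5 pools limit all members, with intervals of Agtr1b and Mas1 wider than a 4-fold difference.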
